A study of Mus musculus with 2 samples.

Results

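The alpha and beta tubulin isotypes that make up most of the brain's microtubule protein were examined on the polysomes of neonatal mouse brain. The 10 genes, 4 of alpha and 6 of beta tubulin, were taken by symbol (Tuba1a, Tuba1b, Tuba1c, Tuba4a, Tubb2a, Tubb2b, Tubb3, Tubb4a, Tubb4b and Tubb5) out of 45578 genes in the deposited table, and each symbol matched 1 gene. All 10 passed the filter on low counts. The samples were whole brains of 2 control mice at postnatal day 5 on the FVB background, and both animals belonged to a single group. Both animals were heterozygous for a disrupted mouse Smn and bore the human SMN2 transgene (Smn+/-; SMN2tg/0), so neither sample came from a wild-type mouse. Ribosome profiling counts footprints, the pieces of mRNA left when nuclease has digested all that ribosomes do not cover, and here the ribosomes came from the polysome fractions of a sucrose gradient. The brain holds many cell types, so in these bulk samples fewer cells of a type and less mRNA or fewer ribosomes per cell cannot be told apart.

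Alpha and beta tubulin fold with the help of the chaperonin TRiC and a set of cofactors, pair as a heterodimer, and the dimers polymerise into microtubules. Vertebrates carry several genes for each partner, and their proteins are nearly identical outside the short acidic tail at the carboxyl end, which enzymes modify by adding or removing glutamate, glycine or tyrosine. In the developing brain Tuba1a and Tubb3 are the isotypes best known from neurons, and changes in Tuba1a, Tubb2b, Tubb3 and Tubb5 cause malformations of the cortex in people. Cells also adjust tubulin synthesis to the pool of free dimers by degrading tubulin mRNA while it is being translated.

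Replicate 1 had 1866831 footprints in total, and replicate 2, which was 2.82 times as deep, had 5261878. Intervals below are exact (Clopper-Pearson) 95% intervals that cover counting error only, and they say nothing of the spread between animals. Markers of the labelled tissue were present. All 10 neuronal, 7 astrocyte and 8 oligodendrocyte markers had footprints in both libraries, with summed levels of 5556 and 4737, 4483 and 3733, and 1062 and 1298 CPM (counts scaled to 1e6 footprints of the library) in replicates 1 and 2. Microglial, endothelial and red cell markers were also found, with none at 0, and 5 genes of skeletal muscle summed to 78.7 and 62.3 CPM, most of it on Acta1.

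Promoter sequences of 9 of the isotypes were in the RefSeq promoter table (build GRCm38.p6), and they are given as a description of the genes. Whether these promoters relate to footprint levels or to the difference between the replicates was not tested. In the 250 bases before the annotated start, the motif TATAA, the core of a TATA box, was found on either strand in 3 of 9 isotype promoters and in 22.8% of all 32851 promoters in the table. The motif CCAAT was found on either strand in 5 of 9, and in 33.8% of all promoters. The 3 windows with TATAA are shown 5′ to 3′ on the strand of the gene, with the motif in capitals. In Tubb3 the same letters, TTATAA, also hold the motif on the other strand.
Tuba1a, chr15:98953562-98953591, minus strand, motif beginning 78 bases before the start: gacagagctgtaTATAAggagccgcatccg
Tubb2a, chr13:34078020-34078049, minus strand, motif beginning 29 bases before the start: gcggtccccgggTATAAaaggcggtgctgg
Tubb3, chr8:123411511-123411540, plus strand, motif beginning 30 bases before the start: ggggcagcctctTATAAgagggcgcggcgg

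Tubulin isotypes were among the genes with the most footprints in the neonatal brain. Together the 10 isotypes took 1.37% of all footprints in replicate 1 (interval 1.35 to 1.38) and 0.815% in replicate 2 (0.808 to 0.823), a mean of 1.09% ± 0.389 (SD, n = 2). The cytoplasmic actins Actb and Actg1, the subunits of the other abundant cytoskeletal polymer, took 0.619% and 0.427%. To compare genes, counts were scaled to CPM and divided by the coding length, which ranged only from 1335 to 1356 nucleotides among the isotypes. On this scale of CPM per kilobase, 7 of the 10 isotypes lay among the 134 genes that form the top 1% of the 13317 tested genes with a coding length, and the lowest isotype still exceeded 94.7% of them.

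Among the alpha isotypes Tuba1a, the alpha tubulin of young neurons, had the highest density when all transcripts were summed. It had 5269 footprints in replicate 1 and 8639 in replicate 2, or 2081 and 1211 CPM per kilobase, and it ranked 13 of 13317 genes by mean density (1646 ± 616, SD, n = 2). Tuba1b, an alpha tubulin made in most cells, had 2522 and 4374 footprints, with densities of 996 and 613. Tuba1c, encoded near Tuba1a and Tuba1b, had 2065 and 3628 footprints, with densities of 819 and 511. For these 3 genes the replicate 1 value was the higher. Tuba4a had 587 and 1969 footprints and densities of 233 and 278, and it was the 1 isotype of the 10 with the higher value in replicate 2. Tuba4a is known for an alpha tubulin made without the usual terminal tyrosine.

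Among the beta isotypes Tubb5, a widely made beta tubulin, had the highest density when all transcripts were summed. With coding transcripts alone, with the highest transcript alone, or per full transcript length, Tubb2b and Tubb2a were above it. Its 4027 and 6936 footprints gave densities of 1616 and 987 CPM per kilobase. Tubb2b, which is required in migrating cortical neurons, had 3393 and 5083 footprints with densities of 1358 and 722. Its close relative Tubb2a had 3280 and 4847 footprints with densities of 1313 and 688. The ratio of Tubb2b to Tubb2a footprints was 1.03 in replicate 1 and 1.05 in replicate 2. Tubb3, the beta tubulin used as a marker of neurons, had 2654 and 4116 footprints with densities of 1051 and 578. Tubb4a, which is prominent in oligodendrocytes and mature neurons, had 997 and 1792 footprints with densities of 400.0 and 255. Tubb4b, a widely made isotype also used in cilia, had 704 and 1512 footprints with densities of 282 and 215. All 6 beta isotypes were higher in replicate 1.

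**Figure D1:**
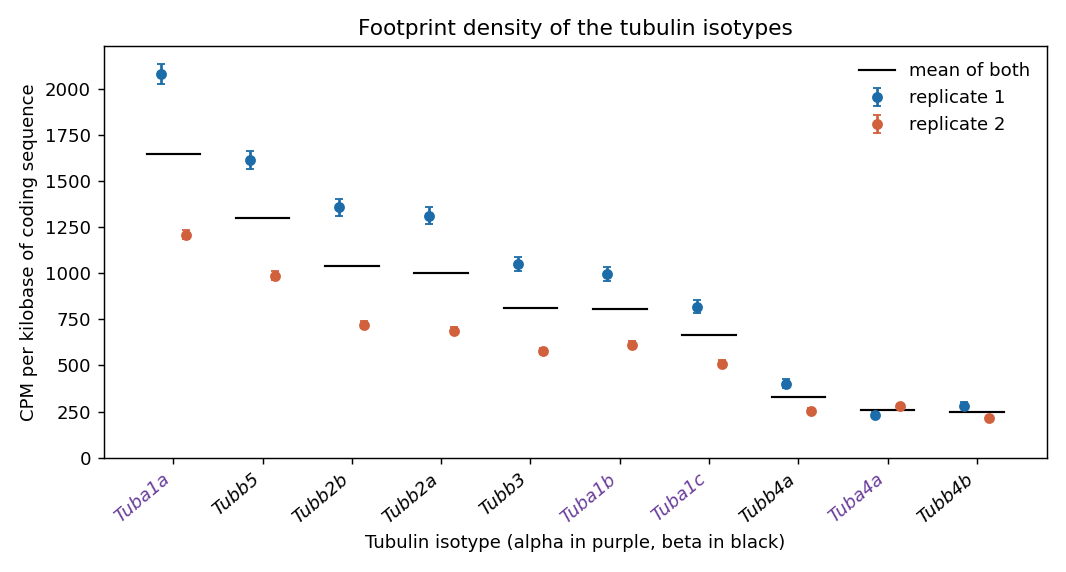
Footprint density in CPM per kilobase of coding sequence for each isotype, ordered by the mean of both replicates (black line); points are the replicates and bars are exact 95% counting intervals. Tuba1a is highest in both replicates, at 2081 and 1211, and Tuba4a is the 1 isotype with the higher point in replicate 2.

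The order of the densities was the same in both replicates for the first 4 positions. Tuba1a came first, then Tubb5, Tubb2b and Tubb2a, and Tuba1c was in position 7 in both. Neighbours were separated in both replicates by more than their counting intervals for Tuba1a over Tubb5, Tubb5 over Tubb2b, Tubb2a over Tubb3, Tuba1b over Tuba1c and Tuba1c over Tubb4a. Tubb2b and Tubb2a kept their order but were not separated by the intervals. Tubb3 and Tuba1b changed places between the replicates. Tuba4a was below both Tubb4a and Tubb4b in replicate 1 and above both in replicate 2. The largest step in the order was that from Tuba1c to Tubb4a, a ratio of 2.05 in replicate 1 and 2.00 in replicate 2. The spread between replicates was larger than the gap between any neighbours above that step: the means of Tuba1a and Tubb5, for example, were 1646 and 1302, with SDs of 616 and 444. These neighbours were all higher in replicate 1, so their SDs hold a shift that they share. Within a library the ratio of Tuba1a to Tubb5 was 1.29 in replicate 1 and 1.23 in replicate 2. With 2 samples no permutation test can reach p < 0.05, so no test of the order was made.

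Within the alpha class the make-up differed between the libraries by more than counting error at both ends. Tuba1a held 50.5% of alpha footprints in replicate 1 (interval 49.5 to 51.4) and 46.4% in replicate 2 (45.7 to 47.1). Tuba4a held 5.62% (5.19 to 6.08) and 10.6% (10.1 to 11.0). The intervals of the other two alpha isotypes overlapped, with 24.2% and 23.5% for Tuba1b and 19.8% and 19.5% for Tuba1c. The mean share of Tuba1a was 48.4% with all transcripts summed and 34.6% with coding transcripts alone.

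In the beta class the largest share was below that of Tuba1a in alpha. Tubb5 held 26.7% of beta footprints in replicate 1 and 28.6% in replicate 2, Tubb2b 22.5% and 20.9%, and Tubb2a 21.8% and 20.0%. Tubb3 held 17.6% (interval 17.0 to 18.2) and 16.9% (16.5 to 17.4), and these intervals overlapped. Tubb4a held 6.62% and 7.38%, and Tubb4b 4.68% and 6.23%. Intervals were apart between the replicates for Tubb5, Tubb2b, Tubb2a, Tubb4a and Tubb4b. Tubb2a and Tubb2b had the smaller share in replicate 2, and the other 3 of these had the larger. The mean share of Tubb5 was 27.7% with all transcripts summed, 21.1% with coding transcripts alone and 18.3% with the highest transcript alone. With coding transcripts alone Tubb2b (24.0%) and Tubb2a (23.1%) were above it, and with the highest transcript alone Tubb3 (19.8%) was as well.

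**Figure D2:**
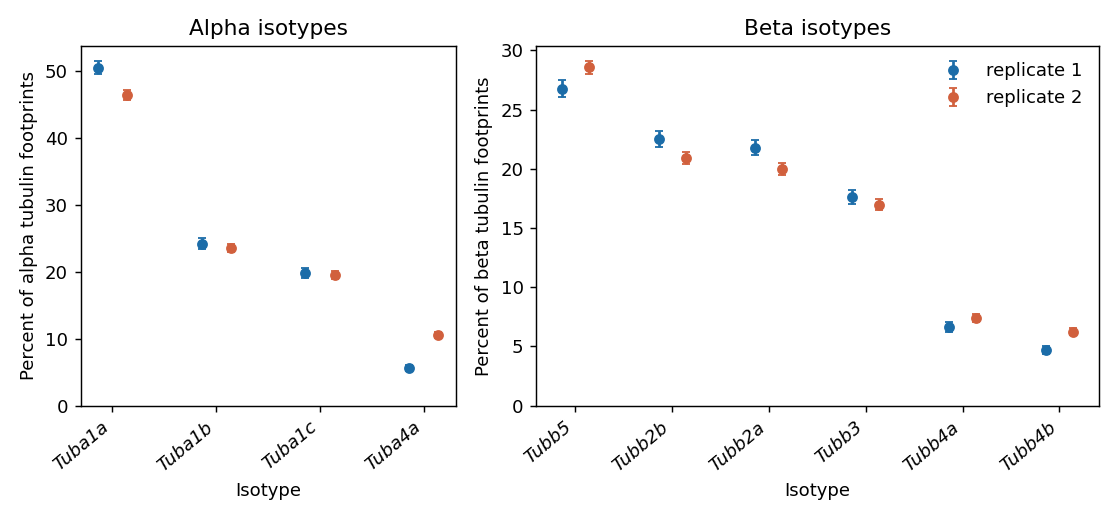
Percent of alpha tubulin footprints (left) and of beta tubulin footprints (right) held by each isotype in each replicate, with exact 95% counting intervals. Tuba1a holds 50.5% and 46.4% of alpha, whereas 4 beta isotypes each hold between 16.9% and 28.6% of beta.

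Beta tubulin carried more footprints than alpha in both replicates. Alpha took 10443 of 25498 tubulin footprints in replicate 1, or 41.0% (interval 40.4 to 41.6), and 18610 of 42896 in replicate 2, or 43.4% (42.9 to 43.9). The mean alpha share was 42.2% ± 1.72 (SD, n = 2), and the intervals of the replicates were apart. Dividing by coding length left the share at 41.9% ± 1.72, because the coding lengths are nearly equal. The alpha to beta ratio of footprints was 0.694 in replicate 1 and 0.766 in replicate 2. An equal number of ribosomes on both classes would give 50%, and both replicates lay below it under every counting choice tried. Ribosome elongation speed and protein turnover were not measured, so the ratio is one of ribosomes and not of protein.

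The share nevertheless depended on which annotated transcripts were counted. The 10 isotypes have 24 annotated transcripts, of which 7 belong to non-coding classes (processed transcripts and retained introns) and overlap the coding ones. These 7 held 16.7% of the isotypes' footprints in replicate 1 and 17.4% in replicate 2. Their share was 47.8% and 48.5% for Tuba1a, 30.2% and 31.8% for Tubb5, 14.3% and 15.8% for Tuba1b, 17.3% and 15.3% for Tubb4b, and 5.96% and 7.67% for Tuba4a. The other 5 isotypes have 1 transcript each, which is coding. With coding transcripts alone the alpha share was 35.4% and 38.3%, and with the highest transcript of each gene alone it was 34.9% and 36.8%. Dividing each gene's count by its number of annotated transcripts gave 30.6% and 32.8%.

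Transcripts of Tuba1a had nearly equal footprint densities. The coding transcript Tuba1a-001 had 2748 and 4448 footprints, or 1.67 and 2.70 per nucleotide of transcript in replicates 1 and 2. Tuba1a-002 had 1.65 and 2.68 per nucleotide, and Tuba1a-003 had 1.65 and 2.79. The single transcripts of Tubb2a and Tubb2b had 2.07 and 3.06, and 1.77 and 2.64, per nucleotide. With summed transcripts Tuba1a led the isotypes, but with coding transcripts alone Tubb2b led at 1373 ± 576 CPM per kilobase (SD, n = 2) and Tuba1a came in position 4 at 1128 ± 416. The 2 choices do not treat the genes alike. Counting coding transcripts alone left out 47.8% and 48.5% of Tuba1a footprints and 0% of those of Tubb2a and Tubb2b. Footprints of this length can match more than 1 tubulin gene, and their assignment is not stated, so the level of each single isotype is uncertain to that extent. Paired transcripts of identical length had counts as far apart as independent counts would be. Counting each shared fragment on 1 of them would give this, but whether the pairs share sequence was not checked. Tuba1a has 3 and Tubb5 4 annotated transcripts, and Tubb2a and Tubb2b have 1 each. Whether the extra transcripts drew shared fragments from other isotypes was not tested.

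**Figure D3:**
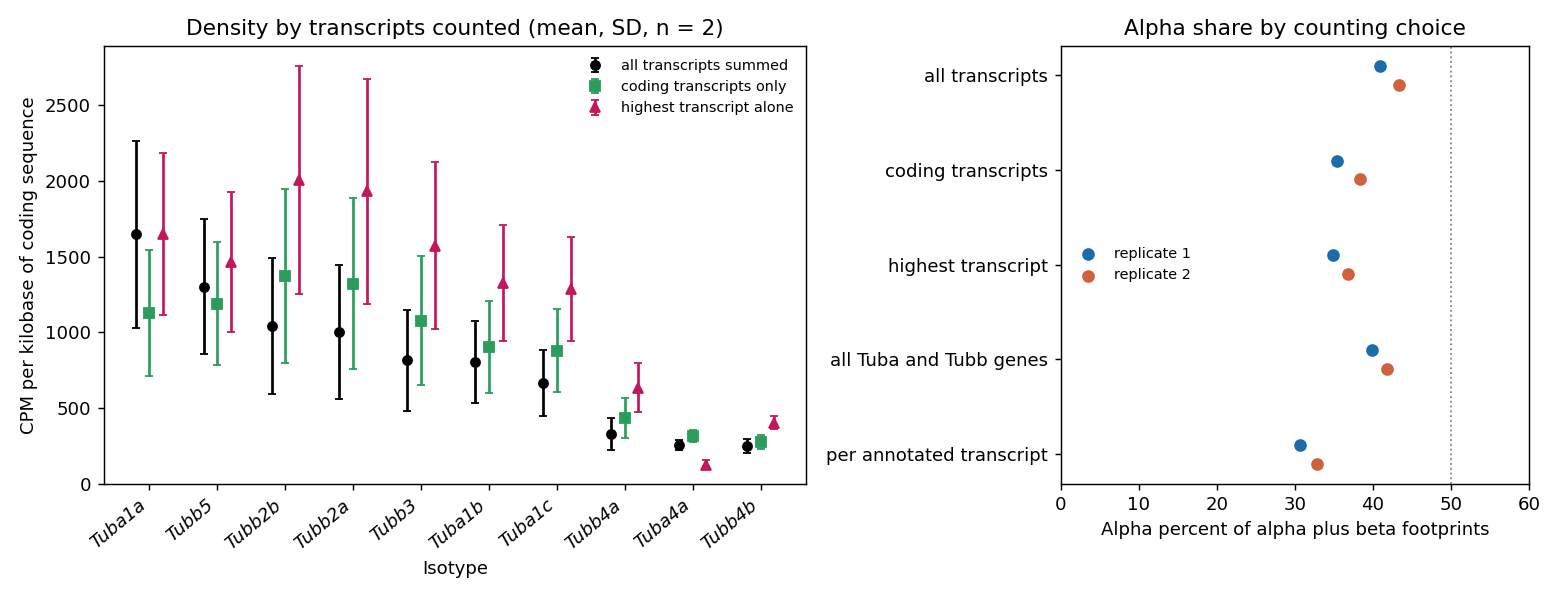
Left, mean density of each isotype in CPM per kilobase with all transcripts summed, coding transcripts alone or the highest transcript alone (bars, SD, n = 2), each scaled to the total of the same choice of transcripts. Right, alpha percent of alpha plus beta footprints per replicate under 5 counting choices, with the dotted line at 50%; the values run from 30.6% to 43.4%.

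Tuba4a differed from the other isotypes in how its footprints were spread. It has 8 annotated transcripts, and its 3 highest (Tuba4a-001, Tuba4a-002 and Tuba4a-003) held 24.5%, 24.4% and 23.7% of its footprints in replicate 1 and 25.5%, 24.2% and 20.3% in replicate 2. With the highest transcript alone its mean class share was 3.06% in place of 8.10%.

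Between the replicates, 9 of the 10 isotypes were called as lower in replicate 2 and 1 was not called. Each gene was tested for a departure from the ratio of effective library sizes (TMM, trimmed mean of M values) by an exact binomial test, two-sided, with Benjamini-Hochberg adjustment over 16427 genes, and a gene was called at an adjusted p under 0.05. The background was high: 17.4% of all genes were called in either direction, 11.5% as lower and 5.95% as higher in replicate 2. Every isotype averaged at least 100 counts, and 2742 of the 8060 genes at that depth were called. Of the called genes 34.2% were higher in replicate 2, and 60.7% were when library totals were used in place of TMM. The median log2 ratio of replicate 2 over replicate 1 was -0.83 over the isotypes and 0.01 over all genes tested. The test compares 2 libraries of 1 group and covers counting error, so a call does not mean that a condition changed the gene.

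The largest differences were those of Tubb2a, at -1.06 on the log2 scale (adjusted p = 1.86e-212 in the exact binomial test), Tubb2b at -1.04 and Tubb3 at -0.99. Tuba1a was at -0.91, Tubb5 at -0.84, Tuba1b at -0.83, Tuba1c at -0.81 and Tubb4a at -0.77. The smallest called difference was that of Tubb4b at -0.52 (adjusted p = 9.17e-13 in the exact binomial test). Tubb2a and Tubb2b lay below all but 0.834% and 0.974% of the genes tested, and Tubb4b below all but 11.3%. Tuba4a had a log2 ratio of 0.12 and was not called (exact binomial test, adjusted p = 0.218), at percentile 60.8 of all genes. With library totals in place of TMM, which moves every log2 ratio up by 0.13, Tuba4a was called as higher in replicate 2 at 0.25, and the other 9 were still called as lower.

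The ratio also moved with footprint density across the whole table. Among the 134 genes of the top 1% by density, the 7 isotypes included, the median log2 ratio was -0.49 and 115 genes (85.8%) were called lower. A running median of the log2 ratio over 501 genes was then removed. Genes were ordered by mean footprints over all transcripts per nucleotide of their highest transcript. Tuba1a stood at 4.22 on this measure, which is not the density of single transcripts given above. For the 7 densest isotypes the running median was -0.35, the single median of the 501 densest genes by that measure. The top 1% above had a lower median, so the relation may be only partly removed for these isotypes. After removal the 10 isotypes had a median of -0.48. The same 9 were still called as lower, from -0.71 for Tubb2a to -0.22 for Tubb4b, and Tuba4a was called as higher at 0.35. What sets this relation of ratio and density was not tested. When spread between animals was allowed for with edgeR's exact test and a common dispersion, 0 of 10 isotypes were called and 8 of 10 had an unadjusted p under 0.05. The adjusted p of this edgeR test ran from 0.767 for Tubb2a to 1, where 11 genes (0.0670%) of the whole table were called. That dispersion was estimated from the same libraries taken as a single group, so the differences tested are part of it. The lack of calls is therefore no measure of the spread between animals.

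**Figure D4:**
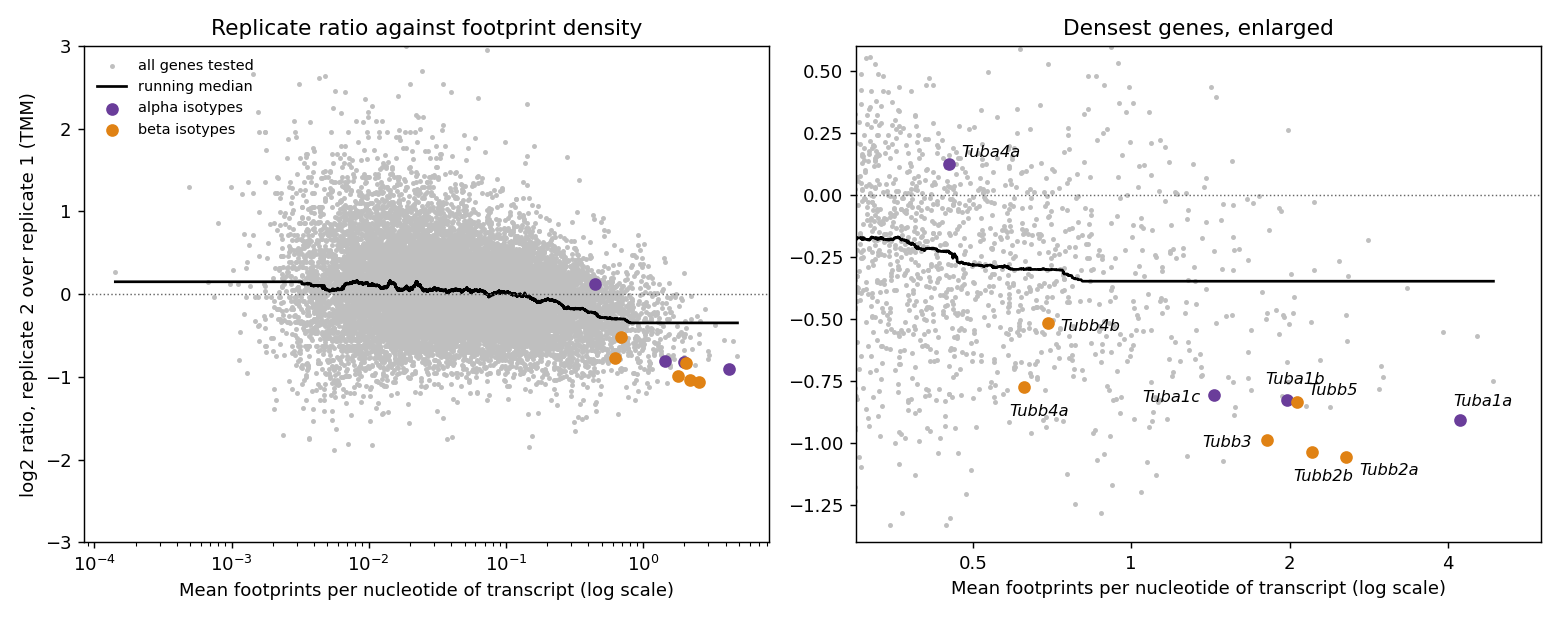
Log2 ratio of replicate 2 over replicate 1 (TMM) against mean footprints over all transcripts per nucleotide of the highest transcript, on a log scale. All genes tested are grey (17 lie outside the plotted range) and the running median is black. The right panel enlarges the densest genes. Of the isotypes, 9 lie below the running median and Tuba4a, at 0.12, lies above it.

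Some markers of several cell types were also called lower in replicate 2, and some were called higher. Of the 10 neuronal markers 6 were called lower and 1 higher in replicate 2, with a median log2 ratio of -0.38; Gap43, a growth cone protein, was at -1.08 and Stmn2, which binds tubulin dimers, at -0.81, whereas Map2, Dcx and Rbfox3 were not called, at -0.06, -0.03 and -0.05. Of the 8 oligodendrocyte markers 3 were called higher, among them Mbp at 0.70 and Mag at 0.47, and 2 lower (Olig2 at -0.93 and Olig1 at -0.84). Of the 7 astrocyte and radial glia markers 3 were called lower (Fabp7 at -0.67, Apoe at -0.57 and Aldoc at -0.28) and 0 higher. Of the 6 microglial markers C1qa and C1qb were called lower, at -0.64 and -0.65, and P2ry12 higher, at 0.82. Of the 5 endothelial markers Cldn5 was called lower, at -0.91. Red cell markers, of which 4 of 5 were called lower, had a median of -0.69. Calls made up 70% of the neuronal, 62.5% of the oligodendrocyte, 42.9% of the astrocyte and radial glia, and 50% of the microglial markers. They made up 20% of the endothelial and 80% of the red cell markers. Of all genes tested, 17.4% were called, 11.5% as lower and 5.95% as higher. Among the 8060 genes averaging at least 100 counts, 2742 were called, which is a larger share. No test of the markers against all genes was made. The part of cell composition in the tubulin difference was not tested.

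The other tubulin genes were minor. The 8 other genes with a symbol starting with Tuba or Tubb took 3.03% of all footprints on such genes in replicate 1 and 3.99% in replicate 2. Tubb6, a beta tubulin of many non-neuronal cells, had 205 and 389 footprints and was lower in replicate 2 at a log2 ratio of -0.69 (adjusted p = 1.68e-06 in the exact binomial test). The processed pseudogenes Tubb4b-ps1 and Tubb4b-ps2 had 364 and 809, and 191 and 482 footprints, against 704 and 1512 on Tubb4b itself. How far fragments of Tubb4b were counted on these pseudogenes was not tested. Tubb4b-ps1 was called as lower, at a log2 ratio of -0.47, and Tubb4b-ps2 was not called, at -0.28. Tuba8 had 18 and 48 footprints, Tuba3a 7 and 27, Tuba3b 8 and 17, and the platelet isotype Tubb1 3 and 9. Tubal3 had 2 footprints in replicate 1 and 0 in replicate 2, where 3 counts, the limit that a count of 0 allows, equal 0.570 CPM. Tubg1, the gamma tubulin that nucleates microtubules, had 55.2 and 62.0 CPM and its log2 ratio of 0.04 was not called.

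Genes that fold, modify and nucleate tubulin were called in both directions. Over 10 lists, 70 of 71 genes were in the table and 59 passed the count filter. Of these 12 were called lower, 4 higher and 43 were not called, with a median log2 ratio of -0.02 against 0.01 over all genes. Called genes made up 16 of 59 (27.1%), against a background of 17.4%. That background depends on depth: of the 8060 genes averaging at least 100 counts, 2742 were called, which is a larger share. With that filter 17 list genes were called, out of fewer than 59, and 33.0% of the 2742 calls were higher in replicate 2. List genes called lower were 20.3% of the 59, against 11.5% of all genes. Neither contrast with all genes is matched for depth, and no test of these differences was made.

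The folding cofactors were the list with the most calls. Calls made up 57.1% of the cofactors, 33.3% of the prefoldin genes and 37.5% of the chaperonin genes, against 17.4% of all genes. All of these list genes averaged at least 100 counts, and at that depth 2742 of 8060 genes were called. Of 7 cofactors that assemble the heterodimer or regulate them, 4 were lower in replicate 2: Tbca at -0.53, Tbcc at -0.52, and Tbcb and Tbcd at -0.36. Tbcb had the highest level of them, with 175 and 149 CPM. Under library totals Tbca alone of the 7 was called, and with the density trend removed Tbcc and Tbcd were. Of 6 prefoldin subunits, which hand nascent tubulin to the chaperonin, Pfdn2 (-0.57) and Pfdn1 (-0.45) were lower and the other 4 were not called. Pfdn5, the prefoldin gene with the highest level (148 and 182 CPM), was not called at 0.17. With library totals Pfdn5 and Pfdn4 were called as higher and Pfdn1 was not called. The 8 chaperonin subunits had summed levels of 2822 and 2863 CPM. Of them Cct7 (-0.67) and Cct2 (-0.47) were lower, Cct3 (0.24) was higher, and Cct8, the one with the highest level at 427 and 470 CPM, was not called at 0.01. With the density trend removed Cct8, Cct4 and Tcp1 were called as higher too.

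Among the enzymes that modify tubulin, genes were called in both directions. Calls made up 22.2% of the tested glutamylation and glycylation genes, 25% for deglutamylation, 33.3% for the tyrosination cycle and 0% for acetylation. Of all genes 17.4% were called, and a larger share of those averaging at least 100 counts. Of 15 glutamylation and glycylation genes 9 were tested. The polyglutamylase Ttll7 was higher in replicate 2, at 0.57 with 81 and 372 footprints, and Tpgs1, a subunit of the polyglutamylase complex, was lower at -0.63 with 157 and 311. Ttll1, the catalytic subunit of that complex, had the highest level, with 107 CPM in both replicates, and was not called at -0.12. Of 4 deglutamylation genes tested Agtpbp1, which trims glutamate from tubulin tails and is needed by Purkinje cells, was higher at 0.36 with 161 and 226 CPM. In the tyrosination cycle Vash1, a carboxypeptidase that removes the terminal tyrosine, was lower at -0.44 with 88.9 and 71.6 CPM, and the ligase Ttl that restores it was not called at 0.07. Under library totals none of the 3 genes tested in this cycle was called. Of the 3 acetylation genes 0 were called in the exact binomial test, 0 had an unadjusted p under 0.05, and their log2 ratios ran from -0.09 to 0.03. The acetyltransferase Atat1 had the highest level of them, at 238 and 265 CPM, and with the density trend removed it was called as higher.

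Of the genes of microtubule nucleation and of tubulin mRNA control, 1 in each list was called. That is 12.5% and 25% of those tested, against 17.4% of all genes and a larger share of those averaging at least 100 counts. Of 8 genes of the gamma-tubulin ring complex Mzt2 was lower at -0.74 with 118 and 216 footprints, and Tubgcp2, the highest in level with 67.0 and 55.5 CPM, was not called at -0.39, but was called as lower with the density trend removed. Ttc5, which recognises nascent tubulin chains and starts the decay of their mRNA, had 64 and 222 footprints and was not called at 0.17 (adjusted p = 0.70 in the exact binomial test). Its partners Scaper (-0.13) and Cnot11 (0.06) were not called. Cnot1, the scaffold of the general deadenylase complex, had the highest level of this list, with 106 and 149 CPM, and was higher in replicate 2 at 0.37.

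**Figure D5:**
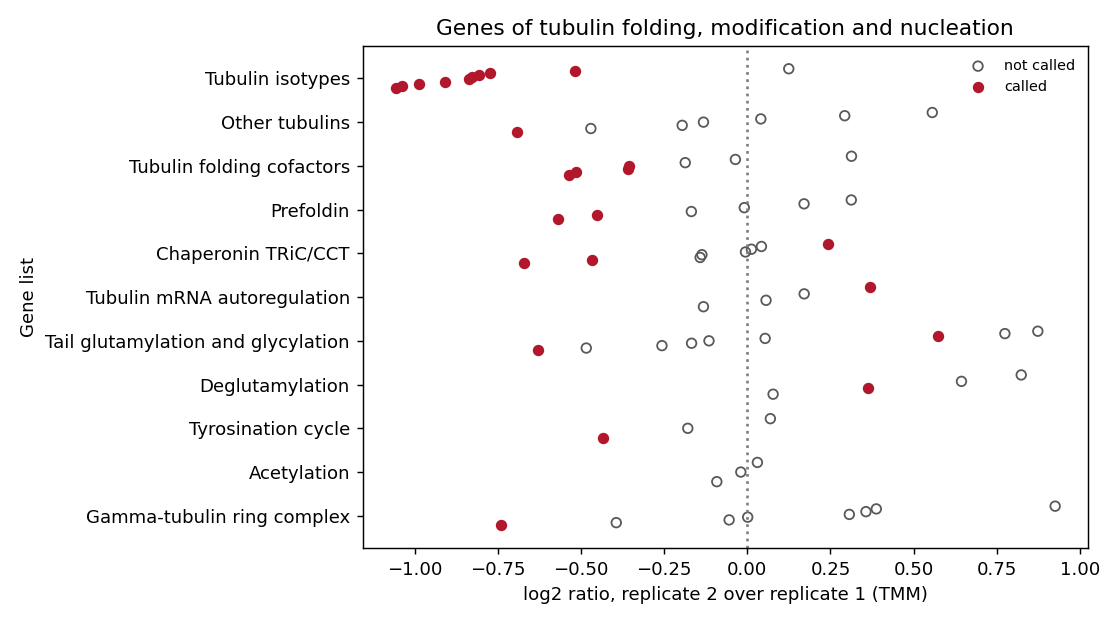
Log2 ratio of replicate 2 over replicate 1 (TMM) for the isotypes and for each tested gene of the 10 lists; filled points were called by the exact binomial test and open points were not. The isotypes lie between -1.06 and 0.12, and the 59 other genes have a median of -0.02.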

How the data were processed

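Ribosome-protected fragments of 25 to 35 nucleotides were sequenced from brain polysomes of 2 control mice. The authors deposited whole-number counts per transcript, 1 column per replicate and not normalized, with annotated lengths in nucleotides. The submitters' processing notes name Trimmomatic 0.36, Bowtie2 2.2.6, SAMtools and the build GRCm38.p4. The counting rule, the annotation release and the handling of fragments that match several places are not given in the sources used here.

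Counts were summed over the transcripts of a gene. Pairs of coding transcripts of 1 gene with identical annotated lengths (63 in replicate 1 and 70 in replicate 2) had a mean squared difference over the sum of 1.11 and 0.841. If paired transcripts share their sequence, 0 would mean counting on both and 1 independent counts. Levels are CPM of the library total. Density divides by the coding length of the coding transcript with the highest mean count. TMM factors (edgeR 4.0.16, only genes averaging 10 or more counts) were 0.957 and 1.04. Log2 ratios carry a prior of 0.5 CPM. A quasi-likelihood test has no contrast in 1 group, so libraries were compared with an exact binomial test (scipy 1.17.1). The test was tried on simulated counts with counting error alone, so that trial says nothing of spread between animals. DESeq2 1.42.0 gave alternative size factors. Separate animals are named as biological replicates by the labels.

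Named in the text are all isotypes, other Tuba or Tubb genes above 1% of their class, and from each list the gene with the highest level and the called gene with the largest ratio per direction; the remaining genes were named after their values were seen. The members and lists were chosen with earlier results of these data known. The planned comparison of protein and coding sequences was not run, since these sequences were not used here. The values of 1 marker gene are not reported here.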

Additional observations from a re-analysis of the deposited data

How the results depend on the processing

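Alternatives were other scalings, transcript choices, count filters, priors, lengths, tests and single replicates; dividing counts by the number of annotated transcripts, and the alternatives for the gene lists, were added after seeing the data. The number of called isotypes was 9 or 10 in every setting except edgeR's exact test with a common dispersion, which called 0 isotypes (8 at an unadjusted p under 0.05), 11 genes of the whole table (719 unadjusted) and 0 genes of the lists (0 unadjusted). The highest transcript alone gave 1444 called genes in place of 2861, 8 list genes in place of 16, an isotype median of -0.81, an isotype share of 1.67% of its total, and an alpha share of 35.9%. The isotype median was -0.71 with library totals and -0.48 with the density trend removed. Library totals turned the split of all calls from 34.2% to 60.7% higher in replicate 2. The alpha share was 36.9% with coding transcripts alone and 31.7% per annotated transcript, and the share of density was 44.5% per full transcript length. Of 10 positions in the order, 6 remained with coding transcripts alone, 3 with the highest transcript, and 6 to 8 when 1 replicate was left out. No isotype's log2 ratio changed direction, and Tuba4a gained a call under library totals and with the trend removed. No paired analysis was possible because both samples belong to 1 group. Depth limits the minor tubulins: a count of 0, with 3 counts as the limit, allows 1.61 CPM in replicate 1 and 0.570 CPM in replicate 2.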
